A study of Mus musculus with 8 samples.

Results

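The mitochondrial genome transcripts were taken as every gene whose mouse symbol begins with mt-, which gave 37 of the 54446 genes in the deposited count tables. They comprised 13 protein genes, 2 rRNA genes and 22 tRNA genes, and the rule rests on gene symbols alone. They were followed in 8 CEL-Seq libraries of sorted eosinophils from a study of mouse lung eosinophils and their dependence on IL-5. SiglecFhi/CD101+ eosinophils had 2 libraries (replicates 1 and 2), Siglec-Fint/CD101- eosinophils had 2 (replicates 1 and 2), and resident eosinophils had 4 (replicates 3 to 6). All mice were C57BL/6, and the labels give no age, genetic change, agent or time for any group, so the groups and a difference in treatment cannot be told apart. Separate mice are not stated for the replicates either, and p-values therefore measure only the spread between these libraries, which may be technical. Siglec-F, a sialic acid-binding lectin, and CD101, an immunoglobulin-like surface protein, are the sort markers in the labels. Of 9 eosinophil marker genes, Epx (eosinophil peroxidase) and Il5ra (IL-5 receptor alpha chain) had 0 counts in all 4 subset libraries. Neither Siglec-Fint/CD101- library had a count of Siglecf, the gene of Siglec-F. Among the 11828 genes that passed a filter on low counts, 6.86% were at 0 in all 4 subset libraries. In both Siglec-Fint/CD101- libraries, 23.1% were at 0. Prg2 (eosinophil major basic protein) was at 38.7 and 235 CPM in SiglecFhi/CD101+ and 0.727 and 1.86 CPM in Siglec-Fint/CD101-, against 4.95 to 15.9 CPM in resident libraries, where CPM are counts per 1000000 counts, scaled by edgeR's TMM. Of the 9 markers, 7 passed the filter on low counts, and these went both ways. SiglecFhi/CD101+ against resident had 2 higher and 1 lower at an edgeR unadjusted p under 0.05 (3.65% of all genes higher, 13.1% lower). Siglec-Fint/CD101- against resident had 1 higher and 2 lower (1.9% of all genes higher, 13.8% lower). Their median log2 fold changes were -0.13 and -0.65, beside -0.72 and -0.997 for all tested genes.

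The mitochondrial genome is a small circle read from both strands into long precursor RNAs. Excised tRNAs act as punctuation, and their removal frees the rRNAs and mRNAs. The 13 proteins are core subunits of respiratory complexes I, III and IV and of ATP synthase, which together make ATP, while all factors that copy, transcribe and translate this genome come from the nucleus. Mouse mitochondrial mRNAs carry short poly(A) tails, the rRNAs shorter ones, and mature tRNAs end in CCA. CEL-Seq primes on runs of A and counts reads near the 3' end, so a count of a mitochondrial gene depends on its tail as well as on its amount. In human cells the transcript of ND6 is known to lack such a tail. Among granulocytes, eosinophils are known to hold more working mitochondria than neutrophils, which rely on glycolysis.

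Sequences of 3 kinds show what the counts rest on, all from GENCODE M21 transcripts on GRCm38. The first kind is the 3' ends of the genes that share bases with a neighbour, since reads there could belong to either gene. In the last 60 bases of mt-Atp8 (chrM:7910-7969, plus strand) the capitals mark the 43 bases shared with the start of mt-Atp6, in mt-Nd4l (chrM:10114-10173, plus strand) the 7 bases shared with mt-Nd4, and in mt-Nd6 (chrM:13552-13611, minus strand) the 14 bases that lie opposite the end of mt-Nd5.
mt-Atp8: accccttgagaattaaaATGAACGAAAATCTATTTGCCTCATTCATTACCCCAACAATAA
mt-Nd4l: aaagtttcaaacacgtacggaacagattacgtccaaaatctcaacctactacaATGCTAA
mt-Nd6: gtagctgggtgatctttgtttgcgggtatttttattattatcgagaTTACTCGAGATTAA

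The second kind is the longest run of A, in capitals, inside the most abundant gene, mt-Rnr2 (chrM:1463-1522, plus strand), and in mt-Nd2 (chrM:4027-4086, plus strand), which has the longest run of the 15 rRNA and protein genes.
mt-Rnr2: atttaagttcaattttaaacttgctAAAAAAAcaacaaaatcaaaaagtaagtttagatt
mt-Nd2: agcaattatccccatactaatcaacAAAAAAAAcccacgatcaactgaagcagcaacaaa

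Runs were searched as AAAAAA on the transcript strand only. Of the 15 genes, 6 hold one anywhere and 3 (mt-Nd1, mt-Nd2 and mt-Nd5) hold one within their last 300 bases, against 16.7% of 131045 other transcripts of at least that length. The last kind is the 5 tRNAs with the most counts, with the anticodon in capitals: mt-Tm (chrM:3845-3913, plus), mt-Ti (chrM:3706-3774, plus), mt-Tq (chrM:3772-3842, minus), mt-Tp (chrM:15356-15422, minus) and mt-Tg (chrM:9391-9458, plus).
mt-Tm: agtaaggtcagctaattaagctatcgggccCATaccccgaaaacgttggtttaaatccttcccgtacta
mt-Ti: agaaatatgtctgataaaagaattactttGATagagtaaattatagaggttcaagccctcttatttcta
mt-Tq: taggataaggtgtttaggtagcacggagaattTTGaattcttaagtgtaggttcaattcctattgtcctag
mt-Tp: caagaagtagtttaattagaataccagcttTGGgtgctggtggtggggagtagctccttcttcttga
mt-Tg: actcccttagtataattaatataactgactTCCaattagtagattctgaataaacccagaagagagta

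Mitochondrial genes took most of the counts in every library but 1. Their share of all counts was 82.2% and 70.6% in the SiglecFhi/CD101+ libraries, 69.9% and 83.9% in the Siglec-Fint/CD101- libraries, against 61.8%, 57.1%, 38.6% and 52.1% in the resident libraries. All 4 subset libraries lay above all 4 resident libraries, and resident replicate 5 was the lowest of all. The share averaged 76.7% ± 7.44 in the subsets and 52.4% ± 10.0 in resident libraries (SD, n = 4 each), a difference of 24.3 points. An exact two-sided permutation test over libraries gave p = 0.0286, the smallest it can give with 4 against 4 libraries, and an adjusted p of 0.114 over the 4 shares tested. By itself, SiglecFhi/CD101+ averaged 76.4% ± 8.23 and Siglec-Fint/CD101- 76.9% ± 9.91 (SD, n = 2 each), 24.0 and 24.5 points above resident. Each of these had an exact permutation p of 0.133, the smallest that 2 against 4 libraries allow. Between the subsets the difference was -0.467 points (exact permutation p = 1; the smallest possible is 0.333). Binomial counting error was at most 0.185 points wide (Wilson 95% interval), far under the spread between libraries, and covers counting error only.

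**Figure D1:**
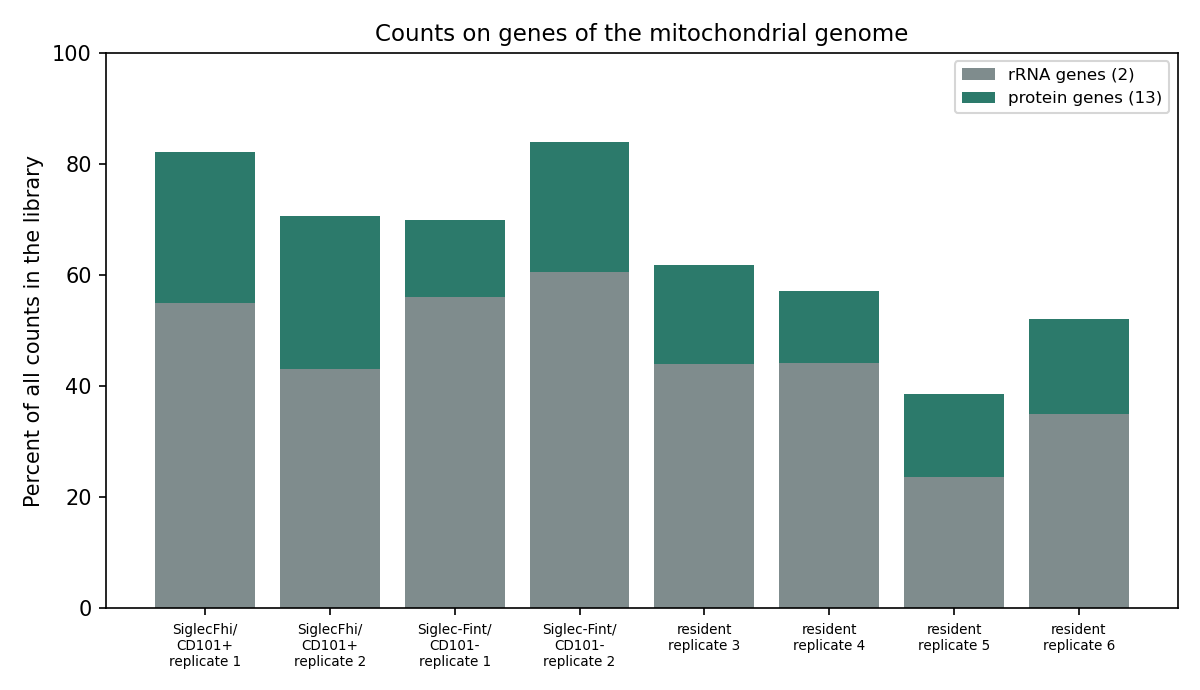
Percent of all counts on the 2 rRNA genes (grey) and the 13 protein genes (green) of the mitochondrial genome in each of the 8 libraries, SiglecFhi/CD101+ and Siglec-Fint/CD101- left of resident. The 22 tRNA genes are too few to see, and the bars of the 4 subset libraries (69.9% to 83.9%) all stand above those of the 4 resident libraries (38.6% to 61.8%).

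Library size and the number of detected genes were lower in every subset library than in any resident library. Within each subset, however, the library with more counts had the higher share (82.2% in SiglecFhi/CD101+, 83.9% in Siglec-Fint/CD101-). Within the resident libraries, replicate 3 had the fewest counts and detected genes and the highest share. On CPM, the summed markers of every other cell type listed overlapped between subset and resident libraries, those of B and plasma cells only barely. Per 1000000 counts outside the mitochondrial genes, B and plasma markers did not overlap, at 533 to 1012.5 in subset and 93.1 to 405 in resident libraries. Nor did T, NK and innate lymphoid markers, at 108 to 436 in subset and 39.8 to 88.9 in resident libraries. The remaining marker sums overlapped on this scale too. Counts outside the mitochondrial genes numbered 444902 to 552121 in subset and 2137819 to 5296468 in resident libraries. Total counts were 1513517 to 3109428 in subset and 5600610 to 11583550 in resident libraries, and detected genes were 7356 to 10834 in subset and 12700 to 15997 in resident libraries. Of the 6 B and plasma cell markers, Igkc was at 0 throughout. Summed marker levels in CPM were 144.5 to 318 in subset and 32.8 to 144.7 in resident libraries for these 6. For 7 T, NK and innate lymphoid markers they were 29.3 to 145 in subset and 14.2 to 34.7 in resident libraries. The 6 epithelial markers summed to 4582 to 7766 in subset and 984 to 13411 in resident libraries, with the highest value in resident replicate 5, the library with the lowest mitochondrial share. Endothelial and fibroblast markers (7) were at 653 to 949 in subset and 152 to 972 in resident libraries, and erythroid and platelet markers (6) at 2692 to 7679 in subset and 994 to 9780 in resident libraries. Macrophage markers (7) were at 150.03 to 685 in subset and 231 to 625 in resident libraries, dendritic markers (6) at 43.9 to 159 in subset and 115 to 148 in resident libraries. Neutrophil markers (7) were at 39.99 to 78.9 in subset and 8.73 to 88.3 in resident libraries, with Mpo, Elane and Camp at 0 in the subsets. The 9 eosinophil markers summed to 148 to 449 in subset and 184 to 429 in resident libraries. The part of depth and of these cells in the share was not tested, and in bulk samples fewer cells of a type and less RNA per cell cannot be told apart.

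Within the mitochondrial counts, the rRNA genes led everywhere. Their share was 66.9% and 60.9% in SiglecFhi/CD101+ libraries, 80.3% and 72.3% in Siglec-Fint/CD101- libraries, against 71.1%, 77.3%, 61.3% and 67.1% in resident libraries. The protein genes held nearly all of the rest, with 33.1% and 39.1% in SiglecFhi/CD101+, 19.7% and 27.7% in Siglec-Fint/CD101-, against 28.9%, 22.7%, 38.7% and 32.9% in resident libraries. Over both subsets the rRNA share was 70.1% ± 8.22, against 69.2% ± 6.74 in resident libraries (SD, n = 4 each), a difference of 0.884 points (exact two-sided permutation p = 0.857, also after adjustment). The protein share differed by -0.885 points (exact permutation p = 0.857). Both small differences changed sign when resident replicate 5 (rRNA -1.76, protein 1.75) or Siglec-Fint/CD101- replicate 1 (rRNA -2.51, protein 2.51) was left out.

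The subsets themselves stood on opposite sides. The rRNA share averaged 63.9% ± 4.25 in SiglecFhi/CD101+ and 76.3% ± 5.65 in Siglec-Fint/CD101- libraries (SD, n = 2 each), without overlap, a difference of -12.4 points at the smallest exact permutation p that 2 against 2 libraries allow, 0.333. The resident libraries overlapped with both. As a part of all counts, the protein genes made up 27.2% and 27.6% in SiglecFhi/CD101+, 13.8% and 23.3% in Siglec-Fint/CD101-, against 17.9%, 12.95%, 14.9% and 17.1% in resident libraries. Both SiglecFhi/CD101+ libraries were above every other library, while Siglec-Fint/CD101- replicate 1 lay inside the resident range. With the rRNA genes left out of the totals, the protein genes took 48.4% and 60.5% in SiglecFhi/CD101+ and 31.4% and 59.1% in Siglec-Fint/CD101- libraries, against 19.6% to 31.9% in resident libraries. Only Siglec-Fint/CD101- replicate 1 then overlapped with resident.

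mt-Rnr2, the 16S rRNA of the large mitochondrial ribosomal subunit, ranked first of all genes in all 8 libraries. It held 63.0% and 56.7% of mitochondrial counts in SiglecFhi/CD101+, 72.9% and 66.8% in Siglec-Fint/CD101-, against 65.4%, 70.7%, 56.7% and 61.5% in resident libraries. The subsets did not overlap with each other, and each overlapped with resident. mt-Rnr1, the 12S rRNA of the small subunit, held 3.93% and 4.24% in SiglecFhi/CD101+, 7.32% and 5.44% in Siglec-Fint/CD101-, against 5.65%, 6.60%, 4.59% and 5.62% in resident libraries, and was lowest in both SiglecFhi/CD101+ libraries. The counts of mt-Rnr2 were thus 16.01 and 13.4 times those of mt-Rnr1 in SiglecFhi/CD101+, 9.96 and 12.3 times in Siglec-Fint/CD101-, against 11.6, 10.7, 12.4 and 10.9 times in resident libraries. Both SiglecFhi/CD101+ ratios were above the other 6, a description made after the values were seen and not tested. One copy of each rRNA is needed per ribosome, and the ratio here is one of counts, not of molecules.

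Levels per length spread widely between genes. CEL-Seq counts reads near the 3' end, so counts need not rise with length, and the order here depends on dividing by it. On the scale of counts per kb per 1000000 mitochondrial counts, the median over the 8 libraries was 405860 for mt-Rnr2. mt-Atp6, a membrane subunit of ATP synthase, ranged from 54258 to 134760 on that scale, and mt-Rnr1 from 41187 to 76700, so these neighbours in the order were not separated. mt-Nd4, a complex I subunit, ranged from 23074 to 69217, mt-Nd1 from 20256 to 53508 and mt-Cytb, the sole complex III subunit encoded here, from 17672 to 43871, and these too overlapped. mt-Co1, mt-Co2 and mt-Co3, the catalytic core of complex IV, ranged from 14076 to 21051, from 19684 to 34496 and from 19895 to 35611, and overlapped with mt-Nd2 (13239 to 41010) and mt-Nd3 (14868 to 37064).

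Below a gap on this scale came mt-Nd4l (1975 to 9551), mt-Nd5 (1835 to 4366) and mt-Atp8 (1540 to 3546). For mt-Nd5, the longest of the 15 rRNA and protein genes, the gap came with the division by length. Without it, mt-Nd5 held 1.925% ± 0.32 of protein-gene counts in resident libraries, beside 2.64% ± 0.48 for mt-Nd3 (SD, n = 4). mt-Nd4l and mt-Atp8 are each encoded upstream of, and in mice on the same mRNA as, mt-Nd4 and mt-Atp6, whose starts they overlap in the sequences above. Of the counts on each pair, mt-Atp8 took 0.57% to 1.37% and mt-Nd4l 1.32% to 5.17% over the 8 libraries. CEL-Seq counts reads near the tail, which on such an mRNA lies in the downstream gene, and the part of this in the shares was not tested. How reads in shared bases were assigned is not given in the sources used here. Between any pair of libraries, the log2 shares of the 13 protein genes had a Pearson correlation of 0.976 to 0.998 (13 genes that share a library, given as a description).

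**Figure D2:**
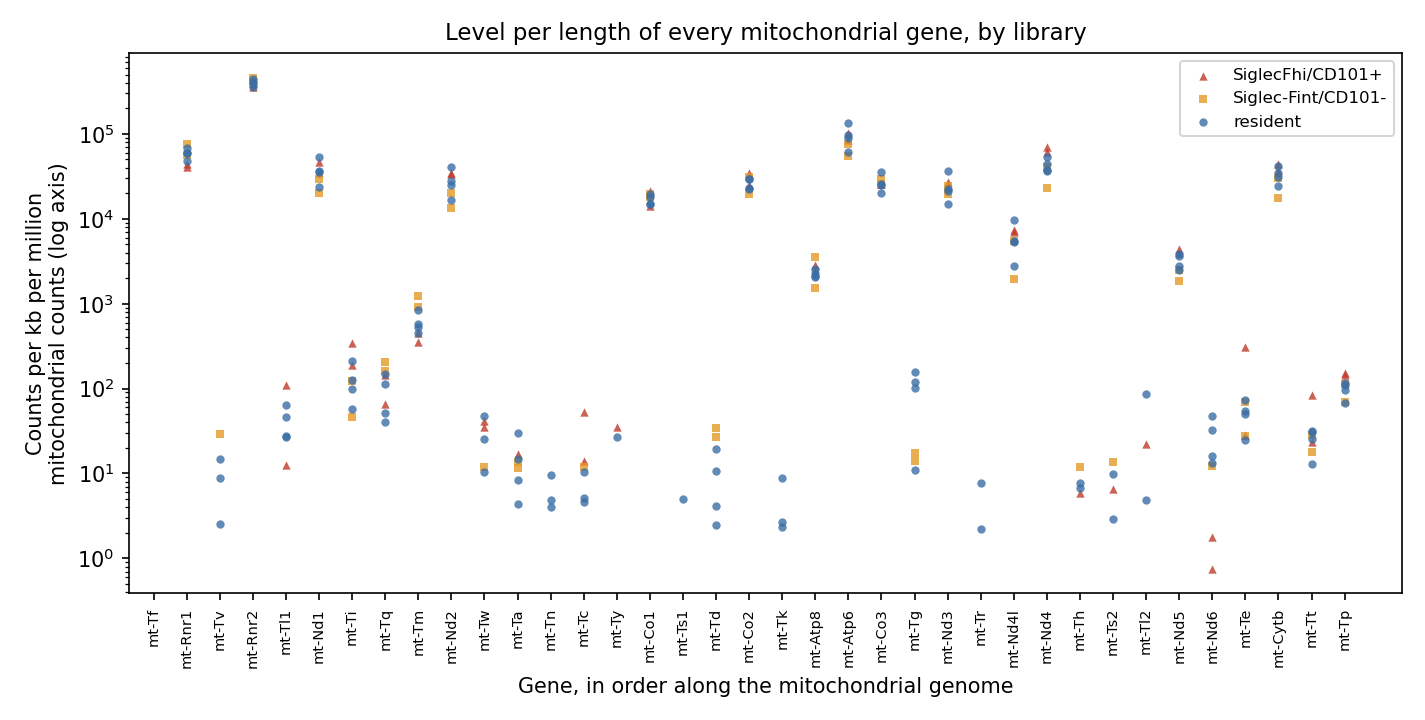
Counts per kb per 1000000 mitochondrial counts (log axis) of each of the 37 genes in order along the mitochondrial genome, with 1 point per library, coloured and shaped by group. Values of 0 are not drawn, so mt-Tf has no point. Every tRNA gene and mt-Nd6 lie below the lowest point of the other protein genes (1540, mt-Atp8).

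mt-Nd6, a complex I subunit and the one protein gene on the minus strand, stood with the tRNAs. It had 1 and 1 counts in SiglecFhi/CD101+, 0 and 16 in Siglec-Fint/CD101-, against 29, 46, 50 and 144 in resident libraries. Scaled per 1000000 mitochondrial counts, this was 0.391 and 0.936 in SiglecFhi/CD101+, 0 and 6.38 in Siglec-Fint/CD101-, against 8.38, 6.96, 17.1 and 24.98 in resident libraries, where 3 counts in the Siglec-Fint/CD101- library without counts would be 2.83. All 4 subset libraries were below all 4 resident libraries on that scale. On CPM, which also carries the difference in total mitochondrial share, Siglec-Fint/CD101- replicate 2 (9.93 CPM) lay just above the resident range of 3.51 to 9.58 CPM. In edgeR's quasi-likelihood test the log2 fold change of both subsets against resident was -1.66 ± 1.45 (SE; adjusted p = 0.524), and it ranged from -5.83 to -1.14 with 1 library left out. Without a stated strand setting, reads of mt-Nd6 and of mt-Nd5 on the opposite strand cannot be told apart where they overlap.

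The tRNA genes, which decode the 13 mRNAs, gave 2310 counts over the 8 libraries out of 25962554 mitochondrial counts. Scaled per 1000000 mitochondrial counts, they summed to 92.3 and 89.8 in SiglecFhi/CD101+, 94.3 and 127 in Siglec-Fint/CD101-, against 83.7, 60.6, 90.5 and 104.6 in resident libraries. The groups overlapped, and the share of both subsets differed from resident by 0.0016 percentage points (exact two-sided permutation p = 0.343, adjusted p = 0.686). The 5 tRNAs printed above held 81.6% of these counts. mt-Tm (methionine) alone had 1172 counts, which is 50.7%, and mt-Ti (isoleucine) had 229, mt-Tq (glutamine) 184, mt-Tp (proline) 181 and mt-Tg (glycine) 119. Of the 22, 14 lie on the plus strand and 8 on the minus strand, and the minus strand held 23.5% of tRNA counts. mt-Tf (phenylalanine) had 0 counts in every library, 13 tRNA genes, mt-Tf included, had fewer than 30 counts in all, and 6 had a count in each of the 8 libraries.

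Individual tRNAs varied between libraries. mt-Tm had 79 and 26 counts in SiglecFhi/CD101+, 66 and 216 in Siglec-Fint/CD101-, against 139, 205, 108 and 333 in resident libraries. As a percent of mitochondrial counts this was 0.00309 and 0.00243 in SiglecFhi/CD101+, 0.00623 and 0.00861 in Siglec-Fint/CD101-, against 0.00310 to 0.00578 in resident libraries. mt-Tm was thus lower than resident in both libraries of the one subset and higher in both of the other. The lower side rests on a narrow margin, 0.00309 in SiglecFhi/CD101+ replicate 1 (79 counts) against 0.00310 in the lowest resident library. mt-Tg had 0 and 0 counts in SiglecFhi/CD101+, 1 and 3 in Siglec-Fint/CD101-, against 28, 5, 20 and 62 in resident libraries, so all 4 subset libraries were at or under the floor of 3 counts. mt-Ti had 60 and 14 counts in SiglecFhi/CD101+, 9 and 8 in Siglec-Fint/CD101-, against 30, 26, 43 and 39 in resident libraries. mt-Tq had 12 and 11 in SiglecFhi/CD101+, 12 and 37 in Siglec-Fint/CD101-, against 10, 24, 31 and 47 in resident libraries. mt-Tp had 25 and 11 in SiglecFhi/CD101+, 5 and 19 in Siglec-Fint/CD101-, against 27, 49, 19 and 26 in resident libraries. With counts this low, differences between libraries were mostly not detectable at this depth.

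The single genes were then compared in edgeR's quasi-likelihood model over all 8 libraries, on TMM-scaled CPM and with Benjamini-Hochberg adjustment over 11828 genes. The filter on low counts kept 22 of the 37 members, namely all 13 protein genes, both rRNA genes and 7 tRNA genes, and left out 15 tRNA genes. In both subsets against resident, 0 of the 22 passed an adjusted p under 0.05, where 0.0254% of all tested genes were called higher. At an unadjusted p under 0.05, 14 members, 12 of them protein genes, were higher and 0 lower, against 1.91% of all genes higher and 21% lower. At an adjusted p under 0.05, DESeq2 called 16 members higher, where it called 1.91% of all genes higher and 6.71% lower. By the same threshold limma-voom called 1 member higher, against 0.0423% of all genes. The median log2 fold change of the protein genes was 1.45, beside -1.28 for all tested genes (-1.27 with genes at 0 in a group set to 3 counts). Of the 13 protein genes, 12 were above 0 and mt-Nd6 was below, where 24.6% of all tested genes were above 0. With library totals alone in place of TMM, the medians were 0.53 for protein genes and -2.09 for all genes, and the distance between them lay between 2.44 and 2.80 under the scalings, tools and filters tried.

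mt-Co1, the catalytic subunit of complex IV, came closest to a call together with mt-Co3. Its level was 29485 and 21195 CPM in SiglecFhi/CD101+, 21245 and 46873 CPM in Siglec-Fint/CD101-, against 13431, 12146, 6239 and 10769.5 CPM in resident libraries. All 4 subset libraries were above all 4 resident libraries, and the log2 fold change was 1.46 ± 0.29 (SE; edgeR adjusted p = 0.0787). mt-Co3 was at 27683 and 13208 CPM in SiglecFhi/CD101+, 17809.6 and 30993 CPM in Siglec-Fint/CD101-, against 11351, 8109, 5729 and 7623 CPM in resident libraries (1.45 ± 0.29; edgeR adjusted p = 0.0787). mt-Co2 (1.52 ± 0.34) and mt-Nd3 (1.55 ± 0.33) did not overlap between the groups either, at edgeR adjusted p of 0.0993 and 0.0857. Including mt-Tq, these made 5 members whose CPM in both subsets lay wholly above resident, against 0.702% of all genes. Wholly below resident lay 0 members, against 12% of all genes. The 5 higher members were singled out after their values were seen.

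The largest positive log2 fold change among the protein genes was that of mt-Atp8, an accessory subunit of ATP synthase. It was at 657 and 381 CPM in SiglecFhi/CD101+, 242 and 1127 CPM in Siglec-Fint/CD101-, against 245, 225, 107 and 180.4 CPM in resident libraries. Siglec-Fint/CD101- replicate 1 lay just under resident replicate 3, so the groups overlapped, and the log2 fold change was 1.65 ± 0.46 (SE; edgeR adjusted p = 0.106). Its partner on the same mRNA, mt-Atp6, was at 1.20 ± 0.31 (0.100). The rRNA genes were at 1.35 ± 0.35 for mt-Rnr2 (0.100) and 1.13 ± 0.35 for mt-Rnr1 (0.114), and overlapped between the groups.

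In SiglecFhi/CD101+ against resident, 0 of 22 members passed in edgeR (0.0254% of all genes were called higher), 7 in DESeq2 (2.64% higher) and 0 in limma-voom. The fit without Siglec-Fint/CD101- replicate 1 called 4 of 28 members, against 0.394% of all genes higher. That without Siglec-Fint/CD101- replicate 2 called 3 of 27, against 0.388%. Both fits also tested more genes (14968 and 14962). Unadjusted, 13 members were higher, 12 of them protein genes, against 3.65% of all genes. The CPM of 16 members, 12 of them protein genes, lay wholly above resident, against 6.78% of all genes. Wholly below resident lay 2 members, mt-Nd6 and mt-Tg, against 27.4% of all genes. Among the protein genes, the 4 largest positive log2 fold changes were those of the complex I genes mt-Nd4, mt-Nd4l, mt-Nd5 and mt-Nd2, while mt-Nd6 of the same complex was at -3.20 ± 2.09. mt-Nd4 was at 113044 and 62157 CPM in SiglecFhi/CD101+ and 35596, 26185, 10676 and 28154 CPM in resident libraries (1.80 ± 0.45; edgeR adjusted p = 0.129). mt-Nd2 was at 48234 and 22597 CPM in SiglecFhi/CD101+, against 14991, 8991, 8735 and 11126 CPM in resident libraries (1.69 ± 0.39; edgeR adjusted p = 0.111). These were chosen after their values were seen, and neither mt-Nd4 nor mt-Nd2 overlapped with resident. mt-Co1 was at 1.25 ± 0.34 (0.146), mt-Rnr2 at 1.16 ± 0.41 (0.224) and mt-Rnr1 at 0.72 ± 0.41 (0.364). The median over the protein genes was 1.45, beside -0.72 for all genes (-0.64 with genes at 0 in a group set to 3 counts), and 12 of 13 were above 0, where 36.1% of all genes were.

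In Siglec-Fint/CD101- against resident, 0 of 22 passed in edgeR (0.0338% of all genes were called higher), 4 in DESeq2 (0.854% higher) and 0 in limma-voom. Unadjusted, 15 members were higher, 12 of them protein genes, against 1.9% of all genes. The smallest p-values were those of mt-Co1 at 1.68 ± 0.34 (edgeR adjusted p = 0.145) and mt-Co3 at 1.57 ± 0.34 (0.163), followed by mt-Nd3 at 1.56 ± 0.38 and mt-Co2 at 1.59 ± 0.39 (0.194 each). mt-Rnr2 was at 1.55 ± 0.41 and mt-Rnr1 at 1.53 ± 0.40 (0.246 each). The largest value among protein genes was that of mt-Atp8, at 1.85 ± 0.53 (0.277). mt-Nd4 (1.14 ± 0.45; 0.295) and mt-Nd2 (0.98 ± 0.40; 0.296) were smaller and overlapped with resident. The CPM of 8 members, 4 of them protein genes, lay wholly above resident, against 4.46% of all genes. Wholly below resident lay 1 member, mt-Tl1, against 29.3% of all genes. The median over the protein genes was 1.21, beside -0.997 for all genes (-0.70 with genes at 0 in a group set to 3 counts), but it rested on Siglec-Fint/CD101- replicate 2: without that library it was 0.12, with 4 of 13 protein genes below 0. With TMM, 12 of 13 were above 0, where 33% of all genes were, and with library totals alone 11 of 13 were, at a median of 0.13. The comparisons of each subset with resident share the 4 resident libraries and are not independent.

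**Figure D3:**
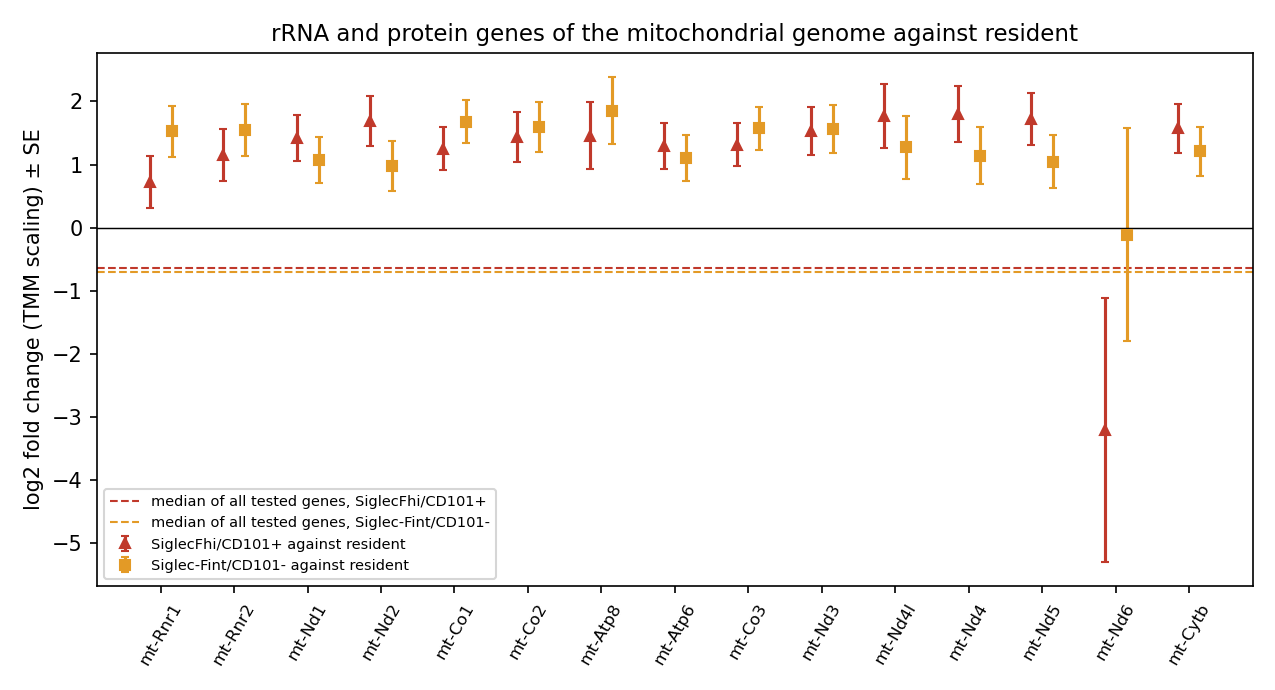
Log2 fold change ± SE (edgeR, TMM scaling) of the 2 rRNA and 13 protein genes in SiglecFhi/CD101+ (triangles) and Siglec-Fint/CD101- (squares) against resident libraries, in genome order. Dashed lines are the medians of all 11828 tested genes, with genes at 0 in a group set to 3 counts (-0.64 and -0.70). With this scaling all genes but mt-Nd6 lie above 0, and none passed an adjusted p under 0.05. Triangles lead at the complex I genes mt-Nd1, mt-Nd2, mt-Nd4, mt-Nd4l and mt-Nd5, and also at mt-Cytb and mt-Atp6. Squares lead at mt-Rnr1, mt-Rnr2, mt-Co1, mt-Co2, mt-Co3, mt-Atp8 and mt-Nd6, and slightly at mt-Nd3. None of these differences between the subsets passed either.

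The subsets were also set directly against each other. In SiglecFhi/CD101+ against Siglec-Fint/CD101-, 0 of 22 members passed in edgeR, DESeq2 or limma-voom (edgeR called 0.00845% of all genes higher, DESeq2 6.02% higher and 4.71% lower), and at an unadjusted p under 0.05 only mt-Tl1 (a leucine tRNA; 21 and 1 against 0 and 0 counts) was higher and 0 were lower, against 9.98% of all genes higher and 7.96% lower. mt-Rnr1 was at -0.80 ± 0.49 (edgeR adjusted p = 0.375) and mt-Nd2 at 0.71 ± 0.47 (0.422). The median of the protein genes was 0.19, beside 0 for all genes, and 7 of 13 were above 0, where 49.3% of all genes were. It ranged from -0.43 without Siglec-Fint/CD101- replicate 1 to 1.22 without Siglec-Fint/CD101- replicate 2, so its sign rests on single libraries.

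The makeup of the protein-gene counts by complex does not depend on the nuclear counts. The 7 complex I genes took 51.8% and 49.4% of protein-gene counts in SiglecFhi/CD101+, 38.4% and 43.0% in Siglec-Fint/CD101-, against 46.4%, 45.1%, 43.4% and 47.0% in resident libraries. Both SiglecFhi/CD101+ libraries were above and both Siglec-Fint/CD101- libraries below the whole resident range. The 3 complex IV genes went the other way, with 18.0% and 19.5% in SiglecFhi/CD101+, 32.5% and 25.7% in Siglec-Fint/CD101-, against 20.1%, 24.0%, 20.3% and 20.7% in resident libraries. Again neither subset overlapped with resident, and the subsets lay on opposite sides of it. These makeups were described after the values were seen, with no test, and 2 libraries against 4 cannot go below an exact p of 0.133.

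Single genes carried this pattern unevenly. Of the complex I genes, only mt-Nd4 lay wholly above resident in SiglecFhi/CD101+, where mt-Nd6 lay wholly below and the rest overlapped. In Siglec-Fint/CD101-, only mt-Nd2 and mt-Nd6 of complex I lay wholly below resident. Of the complex IV genes, each overlapped with resident in SiglecFhi/CD101+, and only mt-Co1 lay wholly above it in Siglec-Fint/CD101-. mt-Nd4 made up 24.8% of protein-gene counts on average in SiglecFhi/CD101+, 18.1% in Siglec-Fint/CD101-, against 19.8% ± 4.28 in resident libraries (SD, n = 4). mt-Co1 averaged 7.45% in SiglecFhi/CD101+, 12.4% in Siglec-Fint/CD101-, against 8.68% ± 1.12 in resident libraries. mt-Co3 averaged 5.68% in SiglecFhi/CD101+, 9.44% in Siglec-Fint/CD101-, against 6.73% ± 0.49 in resident libraries, with 11.7% in Siglec-Fint/CD101- replicate 1 and 7.18% in replicate 2, the second inside the resident range. mt-Nd1, mt-Nd4l and mt-Nd6, also of complex I, overlapped between the subsets. mt-Nd3 of complex I went the other way, with 2.52% on average in SiglecFhi/CD101+ and 3.29% in Siglec-Fint/CD101- libraries, without overlap. mt-Cytb of complex III held 12.5% and 12.8% in SiglecFhi/CD101+, 10.2% and 12.3% in Siglec-Fint/CD101-, against 12.0% to 12.4% in resident libraries. The ATP synthase genes held 17.7% and 18.2% in SiglecFhi/CD101+, 18.9% and 19.0% in Siglec-Fint/CD101-, against 18.7% to 23.8% in resident libraries, where only the SiglecFhi/CD101+ libraries lay wholly below resident.

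**Figure D4:**
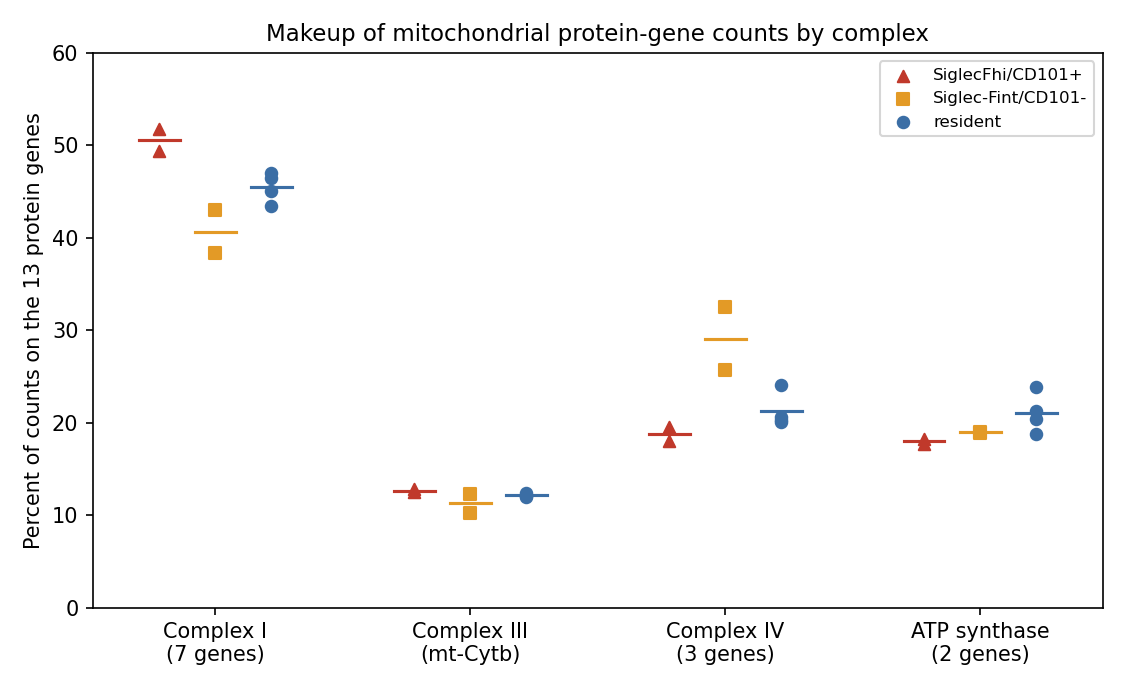
Percent of the counts on the 13 protein genes that fell on the genes of each complex, with 1 point per library and a line at each group's mean. SiglecFhi/CD101+ libraries are highest for complex I (49.4% and 51.8%) and Siglec-Fint/CD101- libraries for complex IV (25.7% and 32.5%), with resident libraries between the subsets in both.

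Genes in the nuclear genome that copy mitochondrial sequence could take reads from the members or give reads to them. By blastn, 16 annotated nuclear genes matched a member at 90% identity or more over 100 bases or more, and 14 of them had counts. Gm13341 on chromosome 2 (95.9% identical to mt-Co2) had 5973 counts over the 8 libraries, Gm13340 (97.6%, mt-Co1) 3556, Gm29216 on chromosome 1 (99.8%, mt-Co1) 870 and Gm13339 (96.7%, mt-Nd2) 386. All copies together came to 352 to 553 counts per 1000000 mitochondrial counts, and Gm10925, identical to mt-Atp6 over 678 bases, had 217 counts. How reads with several matches were counted is not given in the sources used here.

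The nuclear genes that serve this genome were read from the same fit. In both subsets against resident, 0 members of any nuclear list below passed an adjusted p under 0.05 in edgeR, and at an unadjusted p under 0.05 each of these lists had 0 higher, beside 1.91% of all genes higher and 21% lower. Lower were 3 of 10 tested genes of mitochondrial DNA transcription and replication, 5 of 16 of mitochondrial RNA processing and decay, 3 of 16 translation factors, 14 of 73 mitochondrial ribosomal proteins, 2 of 20 genes of mitochondrial mass and membranes, 3 of 13 of mitophagy and permeability, 0 of 8 biogenesis regulators, 1 of 5 nuclear-retained RNAs and 2 of 71 cytosolic ribosomal proteins. Polg, the mitochondrial DNA polymerase, had 0 counts in all 4 subset libraries and 6, 49, 73 and 108 in resident libraries, at least 9.31-fold lower with 3 counts over the 4 subset libraries as the floor. Tufm, the elongation factor that brings tRNAs to the mitochondrial ribosome, was likewise at 0 in the subsets, against 49, 66, 45 and 107 counts (at least 12.8-fold lower), and Mrpl37, a protein of the large mitochondrial ribosomal subunit, at 0 against 95, 301, 217 and 146 counts (at least 35.0-fold lower). Neither these nor other members passed the test (edgeR adjusted p = 0.125, 0.107 and 0.100), and subset libraries held fewer nuclear counts. Of all 11828 tested genes, 6.86% were at 0 in all 4 subset libraries. The floor allows for counting error only, not for the spread between libraries, so these folds are not firm lower bounds.

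The list of mitochondrial mass and membrane genes, which includes outer membrane channels and import receptors, summed to 585 and 688.5 CPM in SiglecFhi/CD101+, 713 and 752 CPM in Siglec-Fint/CD101-, against 603 to 905 CPM in resident libraries, so the groups overlapped. Vdac2, one of those channels, was at 39.3 ± 36.1 CPM in the subsets and 101 ± 21.9 CPM in resident libraries (SD, n = 4 each; log2 fold change -1.61 ± 0.60, edgeR adjusted p = 0.155). Vdac1 was at 34.8 ± 22.4 CPM in the subsets and 35.9 ± 16.5 CPM in resident libraries, and Vdac3 at 81.1 ± 68.8 and 69.4 ± 27.65 CPM. Sqstm1, a receptor that delivers cargo to autophagosomes, was at 299 ± 65.1 CPM in the subsets and 746.5 ± 235 CPM in resident libraries, without overlap (-1.34 ± 0.33; edgeR adjusted p = 0.100). Neat1, a nuclear-retained noncoding RNA, was at 10.7 ± 3.44 CPM in the subsets and 59.6 ± 23.0 CPM in resident libraries, without overlap (-2.48 ± 0.77; edgeR adjusted p = 0.115). The fall of Sqstm1 was thus close to that of the median gene in this fit (-1.28), and the fall of Neat1 was larger. Of all genes, 12% had CPM in both subsets wholly below resident. The cytosolic ribosomal proteins, which come from mRNAs outside the mitochondrion, had a median log2 fold change of -0.44, against 1.45 for the mitochondrial protein genes.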

How the data were processed

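CEL-Seq libraries of sorted eosinophils were read on a NextSeq 550 instrument, per the labels' protocols. The authors deposited 1 table per library of whole-number counts per Ensembl gene, without normalization. Tools behind the counts were Trim Galore, cutadapt 1.10, FastQC 0.11.5, TopHat2 2.1.0, Bowtie2 2.2.6, HTSeq 0.6.1 and DESeq2 1.28.0, with no settings, per the submitters' processing notes. Build, annotation, strand setting, and the handling of multiple matches and molecular identifiers were not given in the sources used here; copies made in amplification would add to the spread. The tables carry letters (N, R, I) that the labels do not explain, so groups follow the sample titles alone.

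Of 54446 gene rows, 54409 matched a symbol in GENCODE M21 (GRCm38), the source of positions and sequences. Counts were fitted in R 4.3.3 with edgeR 4.0.16 (TMM, filterByExpr, group means over 8 libraries, robust quasi-likelihood, two-sided, Benjamini-Hochberg); SE is the log2 fold change divided by the root of F. The biological coefficient of variation was 1.12. Shares were tested by exact permutation over libraries, adjusted over 4 shares per comparison. Nuclear copies were found with blastn 2.17.0+. Alternatives were other scalings, no filter, DESeq2 1.42.0, limma-voom (limma 3.58.1), thinning, a replicate block, and omission of single libraries. The fitting procedure was tested on simulated data. The members and gene lists were chosen with earlier results of these data known. Named were all classes, both rRNA genes, mt-Nd6, the protein genes with the largest and smallest change, the 5 tRNAs with most counts, up to 4 genes of a nuclear list by smallest p and the 4 nuclear copies with most counts; others are marked in the text.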

Additional observations from a re-analysis of the deposited data

Results flagged for a closer look

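In 33 measures of composition screened, the subsets moved to opposite sides of resident in 3, a difference that was not tested. The complex I share of protein-gene counts was 5.1 points above the resident mean in SiglecFhi/CD101+ and at -4.81 points from it in Siglec-Fint/CD101- libraries, with both libraries of each subset on the same side. The complex IV share was at -2.51 points in SiglecFhi/CD101+ and 7.81 points in Siglec-Fint/CD101- libraries. As shares of 1 total, these are not independent of each other. mt-Tm as a percent of mitochondrial counts was at -0.00138 points in SiglecFhi/CD101+ and 0.00327 points in Siglec-Fint/CD101- libraries. On this measure SiglecFhi/CD101+ replicate 1 lay only just under the lowest resident library. Within the 4 resident libraries, replicate 4 stood apart from the other 3 in the complex IV share (24.0%) and replicate 5 in the share of mt-Nd4 in protein-gene counts (13.4%). Chance marks about 1 in 20 such groups, and 2 of 33 were marked.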

How the results depend on the processing

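The mitochondrial share of both subsets above resident kept its direction in all 11 alternatives, at 19.7 to 27.4 points with 1 library left out. Between the subsets the share difference of -0.467 points turned to 8.88 with the 13 protein genes alone over all counts and to 9.21 without the rRNA genes, and ran from -7.48 to 6.54 with 1 library left out. The rRNA share of both subsets minus resident ran from -2.51 to 3.95 and the protein share from -3.95 to 2.51 with 1 library left out. Members called at an adjusted p under 0.05 in SiglecFhi/CD101+ against resident numbered 6 with no filter (1.19% of all genes higher), 7 with DESeq2 (2.64%), and 0 to 4 with 1 library left out. In Siglec-Fint/CD101- against resident they numbered 2 with RLE size factors (0.0592% of all genes higher), 6 with no filter (0.349%), 4 with DESeq2 (0.854%), and 0 to 0 with 1 library left out. In both subsets against resident they numbered 3 with RLE size factors (0.0676%), 7 with no filter (0.179%), 16 with DESeq2 (1.91%), 1 with limma-voom (0.0423%), and 0 to 0 with 1 library left out. For Siglec-Fint/CD101- against resident, the log2 fold change of mt-Nd2 turned to -0.081 with library totals alone, and with 1 library left out it ran from -0.064 to 1.52 for mt-Nd2 and from -0.054 to 1.72 for mt-Nd4, the lowest without Siglec-Fint/CD101- replicate 2. The cause of these moves was not tested. Deviations of same-numbered subset libraries from their group means had a correlation of 0.0039. With 2 libraries in each subset, this cannot show whether the replicate numbers 1 and 2 pair them. The fits with and without a replicate block both called 0 members between the subsets. The 4 subset libraries held at most 552121 counts outside the mitochondrial genes, which limits every comparison with nuclear genes, and the tRNA genes were limited by counts in all libraries.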
